A study of Mus musculus with 24 samples.

Results

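The genes described here are 49 protein-coding mouse genes of the extracellular and cell-surface layer of Wnt signalling, not all genes of that layer. They were chosen by symbol from the GENCODE annotation: the 19 Wnt ligands, 4 R-spondins, 10 Frizzled receptors, the co-receptors Lrp5 and Lrp6 with Ror1 and Ror2, the 3 receptors Lgr4, Lgr5 and Lgr6, and 9 secreted antagonists of the Sfrp and Dkk families with Wif1. They are 49 of 21938 protein-coding genes. For each gene the promoter was the 6 kb window of 3 kb on either side of its annotated 5′ end, and the reading was whether H3K27me3 peaks lay in that window and what percentage of it they covered, called coverage here.

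Wnt proteins are secreted lipid-modified ligands that bind Frizzled receptors together with Lrp5 or Lrp6 and stabilize β-catenin, which then acts with Tcf and Lef factors on target genes. Ror receptors carry Wnt signals that do not pass through β-catenin. R-spondins bind Lgr receptors and keep Frizzled receptors on the cell surface, whereas Sfrp proteins and Wif1 bind Wnt ligands and Dkk1 and Dkk2 bind the Lrp co-receptors. In the cerebellum Wnt7a is known as a granule neuron ligand that acts on incoming mossy fibre axons. H3K27me3 is the trimethyl mark that the Polycomb repressive complex writes on histone H3 through EZH2 or EZH1 and that KDM6 demethylases remove, and developmental ligands and receptors with CpG-rich promoters are classical places to find it.

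The 24 libraries were H3K27me3 CUT&RUN libraries, a method that cuts out antibody-bound chromatin for sequencing, from cultured cerebellar granule neurons (CGNs) of CD-1 IGS mouse pups of both sexes around the end of the first postnatal week. They fell into 8 groups of 3 replicates, each replicate from cerebella pooled over litters. The time course held cultures without compound harvested on DIV1, DIV3, DIV5 or DIV7 (DIV, day in vitro). In the GSK-126 experiment cultures received 5 µM GSK-126, an EZH2 inhibitor, or DMSO. In the GSK-J4 experiment they received 1 µM GSK-J4, a KDM6 demethylase inhibitor, or DMSO. Compounds were added on DIV1 and cells were harvested on DIV5. All groups except DIV1 had 1 µM AraC, which kills dividing cells, from DIV2, so in comparisons with DIV1 the effect of days in culture and that of AraC cannot be told apart. These are cultures, not tissue, and in bulk chromatin fewer cells with the mark and less mark per cell cannot be told apart.

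Read depth is unknown, and the libraries differed in how much was called, from 1.07 to 6.57 Mb in 4740 to 22832 peaks. Time-course replicate 1 had the shortest list at DIV1 and at DIV3, and GSK126 replicate 3 stood apart through 1551 promoters marked there alone, against 11 to 213 for each other library. The GSK-126 libraries had lists of 1.07 to 2.00 Mb and their DMSO libraries 3.29 to 4.23 Mb. For this reason differences were tested first with every list of an experiment limited to a common summed length, which measures the share of a library's strongest peaks at a promoter, and then with all deposited peaks. None of the 8 granule neuron marker promoters had a peak in at least 12 libraries, where 9.45% of all promoters did. Among markers of other cells, 3 of 5 Purkinje cell, 2 of 5 vascular, 1 of 5 microglia, 1 of 6 oligodendrocyte and 0 of 5 astroglia promoters did. Of the 76 ribosomal protein promoters, listed as an active control, 4 (5.26%) had a peak in at least 12 libraries. With only 8 granule neuron promoters, 0 lies near the 9.45%. What part cells other than CGNs have in the peaks below was not tested.

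The stretches that carried the peaks are shown as reference sequence, from the RefSeq assembly GRCm38.p6, the build of the peak lists (mm10), read 5′ to 3′ along the gene with each CG dinucleotide in capitals. For 6 of the genes the stretch lay under a peak in at least 12 of the 24 libraries and outside annotated UTRs. Fzd6 (chr15:39005734-39006033, + strand) ends 1 base before the 5′ end and is shown because 23 libraries had a peak over it, with only 6 CG in 300 bases. Ror2 (chr13:53285578-53285877, − strand), Wnt16 (chr6:22288944-22289243, + strand), Dkk2 (chr3:132086033-132086191, + strand) and Rspo2 (chr15:43169572-43169696, − strand) are shown because coverage of their promoter windows was lower with GSK-126 in the full lists. Coverage of the stretches alone was not compared between groups. The Dkk2 bases under peaks of most libraries, 23, lay between 422 and 625 bases downstream, outside the stretch shown, which had at most 18. Lgr6 (chr1:135104885-135105140, − strand) is shown because its result turned with the processing. Wnt7a (chr6:91410265-91410435, − strand) is the peak of highest fold enrichment at that gene, from GSK126 replicate 2, and it touched the Wnt7a peaks of all 5 libraries that had one.
Fzd6: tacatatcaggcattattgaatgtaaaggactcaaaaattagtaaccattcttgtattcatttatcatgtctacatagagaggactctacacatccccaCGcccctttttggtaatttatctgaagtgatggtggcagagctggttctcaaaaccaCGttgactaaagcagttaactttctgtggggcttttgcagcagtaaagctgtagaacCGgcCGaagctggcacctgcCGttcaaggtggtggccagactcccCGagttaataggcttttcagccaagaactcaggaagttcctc
Ror2: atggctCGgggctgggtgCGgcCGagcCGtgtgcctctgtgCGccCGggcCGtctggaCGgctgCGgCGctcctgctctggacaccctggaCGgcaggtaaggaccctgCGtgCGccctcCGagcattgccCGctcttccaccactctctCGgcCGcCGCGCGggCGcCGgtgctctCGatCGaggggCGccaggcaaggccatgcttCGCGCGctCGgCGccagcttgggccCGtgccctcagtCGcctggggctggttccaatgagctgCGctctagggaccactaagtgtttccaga
Wnt16: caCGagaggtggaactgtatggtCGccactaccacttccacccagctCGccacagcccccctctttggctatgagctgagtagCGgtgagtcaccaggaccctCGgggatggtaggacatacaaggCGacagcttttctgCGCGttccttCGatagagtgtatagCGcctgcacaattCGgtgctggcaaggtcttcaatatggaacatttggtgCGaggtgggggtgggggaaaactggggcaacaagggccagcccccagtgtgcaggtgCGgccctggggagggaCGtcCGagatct
Dkk2: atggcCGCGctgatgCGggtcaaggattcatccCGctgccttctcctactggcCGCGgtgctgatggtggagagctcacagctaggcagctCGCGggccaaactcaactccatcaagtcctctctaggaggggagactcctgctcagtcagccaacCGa
Rspo2: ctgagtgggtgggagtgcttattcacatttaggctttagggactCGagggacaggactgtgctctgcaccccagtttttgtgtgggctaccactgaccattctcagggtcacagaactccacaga
Lgr6: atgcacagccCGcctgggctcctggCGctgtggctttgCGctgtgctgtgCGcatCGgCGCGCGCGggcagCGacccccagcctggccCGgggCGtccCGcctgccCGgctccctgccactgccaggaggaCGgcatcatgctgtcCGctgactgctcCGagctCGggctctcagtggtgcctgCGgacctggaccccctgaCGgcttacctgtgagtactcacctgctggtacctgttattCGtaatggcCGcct
Wnt7a: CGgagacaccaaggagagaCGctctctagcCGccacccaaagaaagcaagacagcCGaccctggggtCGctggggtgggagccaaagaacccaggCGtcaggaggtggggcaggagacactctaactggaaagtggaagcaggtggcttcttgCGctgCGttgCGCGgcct

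The Ror2 stretch held 33 CG in 300 bases, with 97 coding bases, and the Lgr6 stretch 22 CG in 256 bases, with 212 coding bases. The Wnt16 stretch held 15 CG in 300 bases, the Dkk2 stretch, which is coding throughout, 9 CG in 159 bases, and the intronic Wnt7a stretch 10 CG in 171 bases. The Rspo2 stretch, which has no annotated exon, held 1 CG in 125 bases. The stretches under recurrent peaks therefore ranged from CG-rich to CG-poor.

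Wnt pathway promoters were often in the peak lists. A peak lay in the window in at least 12 of the 24 full lists for 19 of the 49 genes (38.8%), against 9.45% of all 21938 promoters. In all 24 lists there was a peak at 4 of the genes, Fzd6, Dkk2, Rspo4 and Rspo3, or 8.16%, against 1.3% of all promoters. No list had a peak at 13 of the genes, or 26.5%, against 62% of all promoters. The remaining 17 had a peak in 1 to 11 lists. Without time-course replicate 1 and GSK126 replicate 3, 20 genes had a peak in at least 10 of the 19 libraries left, against 9.79% of all promoters. The last gene inside 12 libraries was Fzd10 with 15, and the next below it was Wnt6 with 11.

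**Figure D1:**
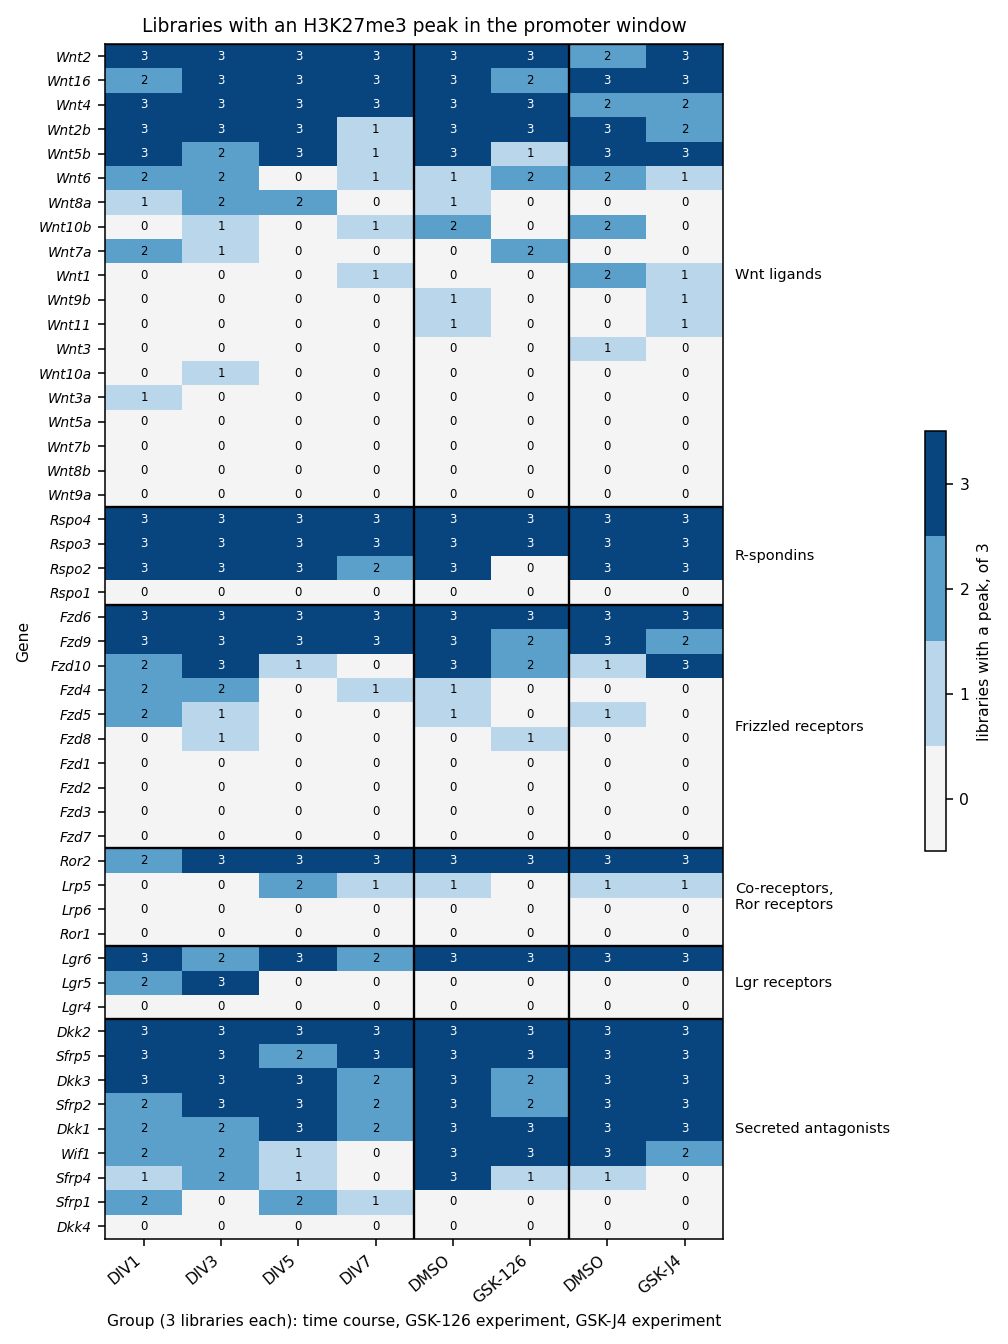
Number of libraries, of 3 in each group, with an H3K27me3 peak in the promoter window, for all 49 genes (rows, ordered within each role by libraries with a peak) in the 8 groups (columns). Fzd6, Dkk2, Rspo3 and Rspo4 are dark in every column, 13 genes are empty throughout, and Rspo2 is at 3 in its DMSO column and 0 with GSK-126.

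Among the ligands, 5 of 19 promoters had a peak in at least 12 libraries: Wnt2 in 23, Wnt16 and Wnt4 in 22, Wnt2b in 21 and Wnt5b in 19. Coverage of Wnt16 ran from 0 to 26.8% with a median of 12.9% over the 24 libraries, and that of Wnt2 from 0 to 25.9% with a median of 10.6%. Wnt4, a ligand best known from kidney and gonad development, had a median of 5.87% and a highest value of 22.5%. A further 10 ligands had a peak in 1 to 11 libraries, namely Wnt6 in 11, Wnt8a and Wnt10b in 6, Wnt7a in 5, Wnt1 in 4, Wnt9b and Wnt11 in 2, and Wnt3, Wnt3a and Wnt10a in 1 each. Wnt5a, Wnt7b, Wnt8b and Wnt9a had none, so Wnt5a had no peak while its close relative Wnt5b had one in 19 libraries.

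Wnt7a had a peak in 5 libraries. Coverage was 2.38% in DIV1 replicate 2, 2.83% in DIV1 replicate 3, 3.5% in DIV3 replicate 3, 2.85% in GSK126 replicate 2 and 1.70% in GSK126 replicate 3. It was 0 in the other 19 libraries, including all DIV5, DIV7, DMSO and GSK-J4 libraries. The 5 peaks were at most 210 bases long, lay between 893 and 1271 bases downstream of the 5′ end in intronic sequence and shared 1 base, at 1062. Their fold enrichment over the caller's background was 2.17 and 2.20 at DIV1, 2.34 at DIV3 and 3.30 and 3.20 with GSK-126, with −log10 q of 1.08 to 1.98, where the caller's limit was 1. With all deposited peaks its coverage differed between DIV7 and DIV1 by -1.74 ± 1.42 percentage points (SE, limma adjusted p = 0.491), and with the common length it did not have coverage in enough libraries to be tested. Both GSK-126 peaks were short, and GSK126 replicate 1 had none.

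R-spondins were the most often marked role, with 3 of 4 promoters in at least 12 libraries. Rspo4 coverage ran from 0.833 to 30.2% with a median of 9.06%, Rspo3 coverage from 2.60 to 22.6% with a median of 9.56%, and Rspo2 coverage from 0 to 16.2% with a median of 3.95%. Rspo1 had no peak in any library. Rspo2 peaks had a median length of only 163 bases but a median fold enrichment of 4.06, the highest of the 19 recurrent genes. Rspo3 was covered only downstream of its 5′ end, with 19 libraries at the best base of a stretch from 1231 to 1530 bases.

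Of the Frizzled receptors, Fzd6 had a peak in 24 libraries, Fzd9 in 22 and Fzd10 in 15, Fzd4 in 6, Fzd5 in 5 and Fzd8 in 2. Fzd1, Fzd2, Fzd3 and Fzd7 had none. Fzd6, a receptor known for its role in hair and tissue polarity, had coverage of 10.0 to 26.5% with a median of 16%, so its lowest library was above 0, and it held the highest −log10 q of the 49 genes, 2.97. The Fzd4 window overlaps that of Tmem135, whose 5′ end is 133 bases away, so its 6 peaks cannot be assigned to either gene. Ror2 had a peak in 23 libraries, with coverage of up to 31.9% and a median of 18.3%, while Ror1 and Lrp6 had none and Lrp5 had a peak in 6. Of the Lgr receptors, Lgr6 had a peak in 22 libraries, with a median coverage of 13.7%, Lgr5 in 5 and Lgr4 in none. Receptors of the same small family therefore differed from each other, Ror2 from Ror1 and Lgr6 from Lgr4.

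Secreted antagonists had a peak in at least 12 libraries at 6 of 9 promoters. Dkk2 had a peak in 24 libraries, with coverage of 1.42 to 30.8% and a median of 15.9%. Sfrp5 had a peak in 23, Dkk3 in 22, Sfrp2 and Dkk1 in 21 and Wif1 in 16. Dkk3, a divergent member of its family, had the highest mean coverage of the 49 genes, 17.9%, followed closely by Ror2 with 17.3%, Fzd6 with 17.0% and Dkk2 with 16.7%. The ranges of these 4 genes overlapped widely, so neighbours in this order did not differ beyond the spread between libraries. Sfrp4 had a peak in 9 libraries, Sfrp1 in 5 and Dkk4 in none. The Sfrp4 window overlaps that of Epdr1, whose 5′ end is 3177 bases away.

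Peaks lay mostly downstream of the 5′ end. Over the 19 recurrent genes a median of 82.2% of covered bases was downstream, and 18 of the 19 had over 50% there. Over all 2074 promoters with a peak in at least 12 libraries the median was 83.0%. The 500 bases from 500 to 1000 downstream held 31.1% of the covered bases of the 19 genes, and those from 0 to 500 held 24.1%. Wnt2 was the exception, with 39.6% downstream. Fzd6 was covered in 2 places, on its 5′ end and near 900 bases downstream, each with a peak in 23 libraries at its best base.

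**Figure D2:**
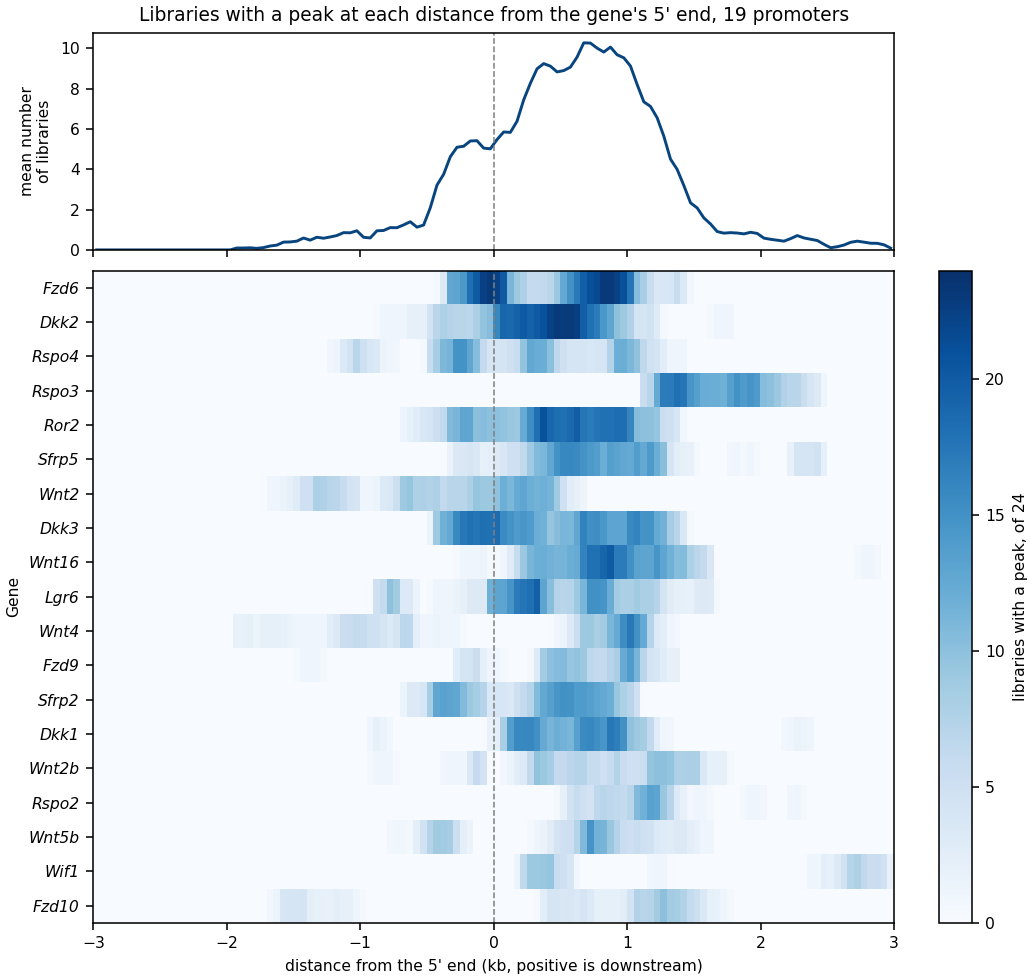
Number of the 24 libraries with a peak in 50-base bins against distance from the 5′ end in kb (positive is downstream), for the 19 genes with a peak in at least 12 libraries, as a mean over genes (top) and gene by gene (bottom, darker is more libraries). Coverage is densest within 1.5 kb downstream of the 5′ end, and Rspo3 and Rspo2 begin well inside the gene.

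The CpG ratio was not higher in the genes with peaks than in those without. The observed-to-expected CpG ratio of the window, the number of CG dinucleotides over that expected from its C and G content, had a median of 0.416 in the 19 recurrent genes, 0.442 in the 17 with 1 to 11 libraries and 0.540 in the 13 with none. Among all promoters the medians ran the other way, 0.370 with at least 12 libraries and 0.282 with none. The ranges were 0.303 to 0.560, 0.253 to 0.667 and 0.229 to 0.678. These values are a description, and no test was made.

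The time course asked whether marking of these promoters changed as CGNs matured. In the full lists the mean coverage of the 49 promoters was 5.74% ± 3.56 (SD, n = 3) at DIV1, 5.67% ± 3.74 at DIV3, 5.04% ± 1.14 at DIV5 and 2.43% ± 0.932 at DIV7, and that of all promoters went from 1.21% at DIV1 to 0.481% at DIV7. Genes with a peak numbered 13 to 28 in the DIV1 libraries, 17 to 27 at DIV3, 17 to 22 at DIV5 and 12 to 19 at DIV7. The ranges overlapped at all 4 days. The full lists were 1.33, 5.19 and 4.08 Mb long at DIV1 and 1.25, 1.19 and 2.25 Mb at DIV7. Of the 28 genes with enough coverage to be tested in the full lists, 24 had a lower mean at DIV7 than at DIV1 and none passed limma's test, where 1.09% of all promoters tested were called lower. At an unadjusted p below 0.05, 3 of the 28 were lower. Of all 3584 promoters tested, 2812 had a lower mean and 18.4% were lower at an unadjusted p below 0.05. The median difference was -6.69 percentage points for the genes and -3.08 for all 3584 promoters tested.

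With the common list length, 16 of the 49 genes could be tested, and none was called between DIV7 and DIV1, where 0.446% of 1794 promoters were called higher and 0.557% lower. At an unadjusted p below 0.05, 1 of the 16 genes was higher and 0 lower, where 6.08% and 6.8% of all promoters were. The smallest p was that of Wnt16, whose coverage at common length was 0 in all 3 DIV1 libraries and 12.3, 10.2 and 11.6% at DIV7, without overlap. The difference was 11.3 ± 3.04 percentage points (SE, limma adjusted p = 0.142). In a window of 1 kb on either side it was 33 ± 5.78 points (adjusted p = 0.0205) and was called, where 9 of 1355 promoters were called higher and 6 lower. Both values rest on DIV1 libraries that were all at 0 at common length. The full-list DIV1 values of Wnt16 were 0, 26.6 and 7.57% and those at DIV7 12.3, 10.2 and 16.9%, which overlap. Rspo3 was next among the higher genes, with 7.96 ± 4.91 points (adjusted p = 0.551), and its sign turned in the full lists, to -9.24 points.

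Fzd6 had -8.41 ± 5.24 points (adjusted p = 0.557) and Rspo2 -2.79 ± 2.67 points (adjusted p = 0.717) between DIV7 and DIV1. Fzd6 coverage in the full lists was 10.1, 26.5 and 25.7% at DIV1, 10.0, 17.5 and 24.8% at DIV3, 22.3, 18.3 and 22.7% at DIV5 and 13.1, 14.8 and 12.3% at DIV7, so DIV1 replicate 1 lay below every DIV7 library. Dkk2 coverage was 17.6, 22.8 and 30.8% at DIV1 and 14.6, 7.57 and 16.3% at DIV7, without overlap (-10.9 ± 5.03 points, adjusted p = 0.263). At common length they overlapped, with 17.6, 22.8 and 0% at DIV1 and the same DIV7 values, and the difference was -0.65 ± 6.04 points (adjusted p = 0.982). None of the 16 genes was called between DIV3 and DIV1, where 0.334% of all promoters were, between DIV5 and DIV3, where 0% were, or between DIV7 and DIV5, where 0.334% were. None was called for a linear trend over days, for which 0.0557% were. At an unadjusted p below 0.05 there was 1 gene higher between DIV5 and DIV3, where 3.68% of promoters were, 1 higher for the trend, where 6.41% were, and 0 in the other 2 comparisons.

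Peaks at Lgr5, Wif1 and Fzd10 were found mostly early in the time course, a set picked after their values were seen. Lgr5, a stem cell receptor, had a peak in 2 DIV1 and 3 DIV3 libraries and in none of the other 18, with coverage of 14.5 and 3.28% at DIV1 and 2.08, 4.83 and 3.5% at DIV3. Wif1 had a peak in 2, 2, 1 and 0 libraries at DIV1, DIV3, DIV5 and DIV7, and Fzd10 in 2, 3, 1 and 0. Each of these genes was at 0 in DIV1 replicate 1, so DIV1 and DIV7 overlapped. Wif1 and Fzd10 nevertheless had peaks in all 3 DMSO libraries of the GSK-126 experiment, which were harvested at DIV5. In the GSK-126, GSK-J4 DMSO and GSK-J4 groups, also at DIV5, Wif1 had a peak in 3, 3 and 2 libraries and Fzd10 in 2, 1 and 3. Of all promoters, 19.4% had a peak in at least 1 DIV1 library and 12.6% in at least 1 DIV7 library. No gene had a peak in all 3 DIV1 libraries and none at DIV7, a pattern that 1.32% of all promoters showed.

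**Figure D3:**
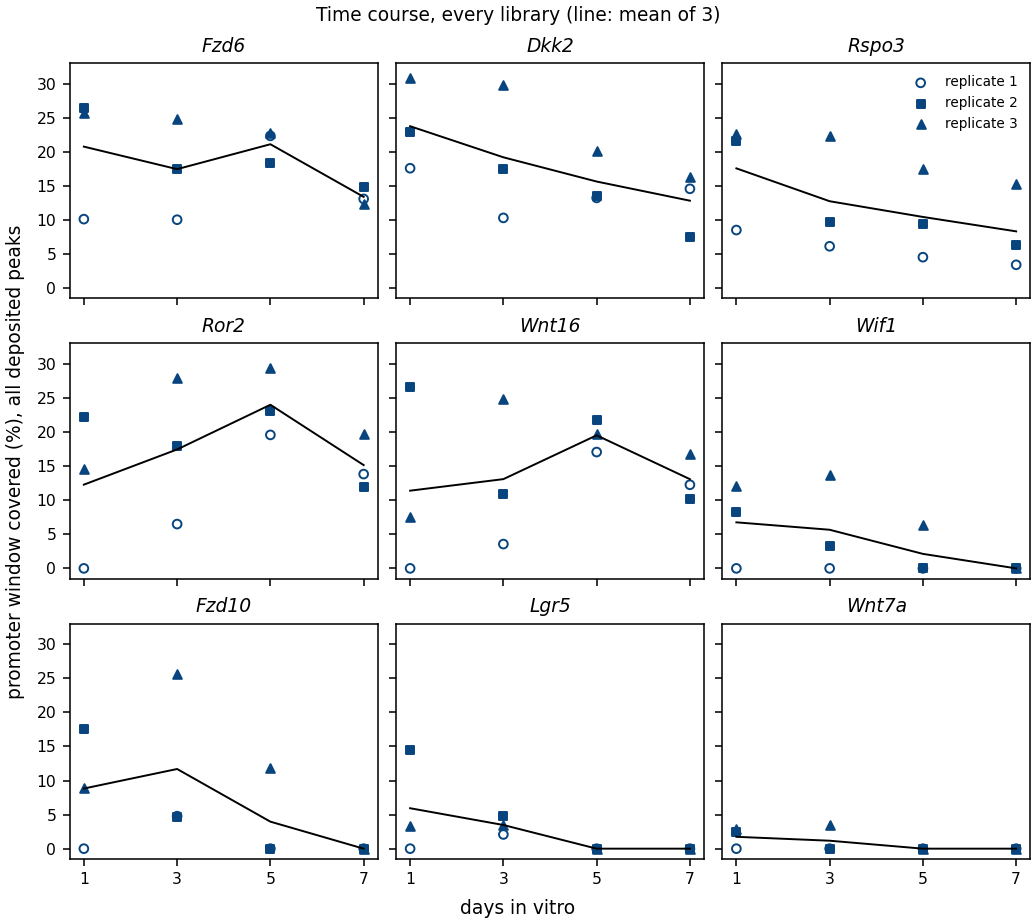
Percentage of the promoter window covered in every time-course library (points, one symbol for each replicate number; the line joins the means of 3) against days in vitro, for 9 of the genes and all deposited peaks. Open circles, replicate 1, sit lowest at DIV1 in all 9 panels, and Lgr5, Wif1, Fzd10 and Wnt7a are at 0 in all 3 DIV7 libraries.

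GSK-126 asked what inhibition of EZH2 from DIV1 to DIV5 left of the mark. In the full lists the mean coverage of the 49 promoters was 6.05% ± 0.420 with DMSO and 2.46% ± 0.865 with GSK-126 (SD, n = 3), and that of all promoters 1.15 and 0.542%. Genes with a peak numbered 20 to 26 with DMSO and 15 to 21 with GSK-126. Peaks in all 3 DMSO libraries were present at 20 of the 49 genes, against 8.63% of all promoters. Of these 20 genes, 12 also had a peak in all 3 GSK-126 libraries, which is 24.5% of the 49, against 3.34% (733) of all promoters. A peak in all 3 DMSO and no GSK-126 library was present at 1 gene, Rspo2, against 1.78% (390) of all promoters. These shares are over all genes or all promoters, not over those with peaks in all 3 DMSO libraries. They therefore also depend on how often the DMSO libraries had a peak. No gene had peaks with GSK-126 alone in all 3 libraries, which 0.0365% of promoters had.

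Of the 21 genes with enough coverage to be tested in the full lists, 8 fell with GSK-126 by limma, where 26.7% of 2385 promoters were called lower, and 0 rose, where 0.21% were called higher. The groups did not overlap and were lower with GSK-126 at 13 of the 21, against 46% of promoters, and higher at 0, against 0.797%. The median difference was -5.72 points for the 21 genes and -4.77 for all promoters tested. A lower mean with GSK-126 was found at 20 of the 21 genes and at 2084 of the 2385 promoters. The genes that fell were 3 antagonists, Sfrp2, Dkk2 and Dkk3, the R-spondins Rspo3 and Rspo2, the receptors Ror2 and Fzd6 and the ligand Wnt16. Of these, Dkk2, Ror2, Rspo3, Sfrp2 and Wnt16 were also called in each of the 6 fits that left out a library. Without DMSO replicate 3 or without GSK126 replicate 2, these 5 were the only genes called.

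Ror2 had the largest difference of the 21 genes in the full lists. Its coverage was 31.9, 28.1 and 22.3% with DMSO and 4.65, 2.47 and 7.23% with GSK-126, a difference of -22.6 ± 2.75 points (SE, limma adjusted p = 0.00361). Sfrp2, a secreted Wnt-binding protein, had 22.4, 19.5 and 19.9% with DMSO and 4.40, 0 and 2.30% with GSK-126, a difference of -18.3 ± 1.84 points (adjusted p = 0.00275). Dkk2 had 20.6, 23.0 and 22.8% with DMSO and 8.22, 6.38 and 1.42% with GSK-126, a difference of -16.8 ± 2.17 points (adjusted p = 0.00404). In each of these genes every GSK-126 library lay far below every DMSO library, and at least 2 of the 3 GSK-126 libraries still had a peak.

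Wnt16 coverage was 20.6, 21.8 and 13.6% with DMSO and 4.18, 3.15 and 0% with GSK-126, a difference of -16.2 ± 2.59 points (adjusted p = 0.00688). Rspo3 coverage was 15.6, 14.2 and 14.8% with DMSO and 3.57, 2.7 and 2.82% with GSK-126, a difference of -11.8 ± 1.46 points (adjusted p = 0.00361). Rspo2 coverage was 6.50, 5.73 and 7.35% with DMSO and 0 in all 3 GSK-126 libraries. It differed by -6.53 ± 1.45 points (adjusted p = 0.0185), and since Rspo2 had no coverage with GSK-126 it entered the test only through its DMSO libraries. Fzd6 went from 24.3, 16.8 and 22% to 14.8, 10.2 and 12.1%, a difference of -8.67 ± 2.41 points (adjusted p = 0.0388). Dkk3 went from 23.1, 29.7 and 22.2% to 10.2, 0 and 17.3%, a difference of -15.8 ± 4.47 points (adjusted p = 0.0409), and its GSK-126 libraries differed the most among themselves.

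Rspo4 was the only one of the 21 genes with a higher mean with GSK-126. Its coverage was 12.3, 1.33 and 5.55% with DMSO and 17.3, 8.88 and 3.20% with GSK-126, and the groups overlapped (3.37 ± 4.21 points, adjusted p = 0.582). Wif1 and Fzd10 also overlapped between the groups, with differences of -1.11 ± 1.96 and -1.29 ± 3.73 points. By role the 8 that fell were 3 of 7 antagonists tested, 2 of 3 R-spondins, 1 of 3 Frizzled receptors, 1 of 6 ligands and Ror2, while Lgr6, the 1 Lgr receptor tested, was not called (-5.72 ± 2.58 points, adjusted p = 0.139).

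With lists of a common length, 11 of the 49 genes could be tested. Lists made equally long cannot show a loss that all promoters share. Dkk2 was called lower, where 4.37% of 939 promoters were, and Lgr6 higher, where 2.45% were. Dkk2 coverage was 20.6, 23.0 and 19.7% with DMSO and 8.22, 6.38 and 0% with GSK-126, a difference of -16.2 ± 2.63 points (adjusted p = 0.0289). Lgr6 coverage was 0 in all 3 DMSO libraries and 13.3, 8.38 and 11.5% with GSK-126, a difference of 11 ± 1.85 points (adjusted p = 0.0289), and it passed the filter only through GSK-126. In the full lists the direction of Lgr6 was opposite, with 15.9, 15.2 and 21.8% with DMSO and 14.9, 8.38 and 12.5% with GSK-126. Its DMSO peaks ranked below the common length, so the higher value is one of rank within a library and not of covered bases. The groups did not overlap and were lower at 2 of the 11 genes, Dkk2 and Fzd6, against 14% of promoters, and higher at 3, Lgr6, Dkk1 and Sfrp5, against 12.4%. These 3 were at 0 in every DMSO library at common length and passed the filter only through GSK-126, so their lack of overlap is no result. The Sfrp5 difference was 8.79 ± 3.65 points at common length and -4.70 ± 3.78 in the full lists.

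Fzd6 at common length differed by -9.72 ± 2.74 points (adjusted p = 0.110) and Dkk1 by 11.1 ± 3.60 points (adjusted p = 0.152). Dkk1, like Lgr6, was at 0 in its DMSO libraries at common length, and in the full lists its difference was -3.41 ± 2.42 points with overlapping groups. Leaving out any of the 6 libraries left 0 genes called at common length. Dkk2 then had differences of -17.9 to -13.8 points, and Lgr6 could not be tested without any of its GSK-126 libraries. Of the 8 genes that fell in the full lists, Dkk2 alone was called lower at common length. There the differences were -3.19 ± 6.49 points for Ror2 (adjusted p = 0.885), -10.3 ± 5.30 for Wnt16 (adjusted p = 0.360), -6.93 ± 3.91 for Rspo3 (adjusted p = 0.419) and -3.84 ± 8.96 for Dkk3 (adjusted p = 0.899), and Sfrp2 and Rspo2 had too few covered libraries to be tested.

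**Figure D4:**
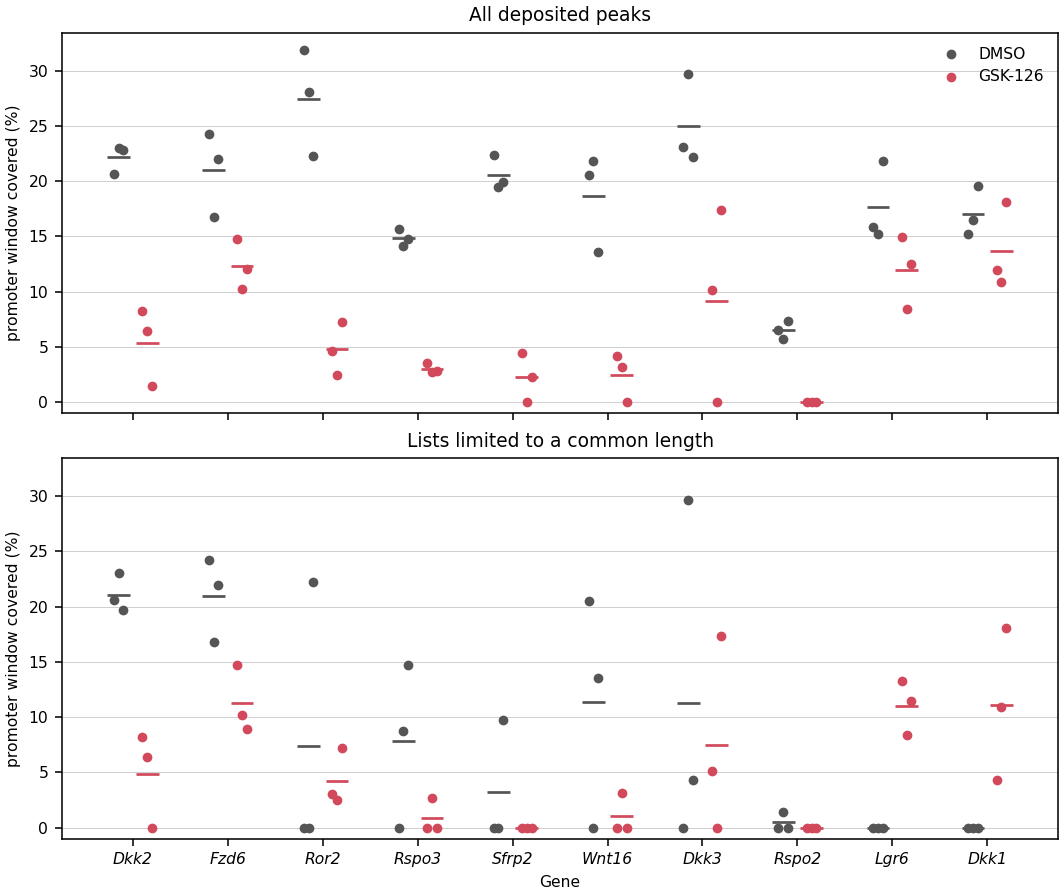
Percentage of the promoter window covered in each DMSO and GSK-126 library (points; bars are means of 3) for the 8 genes that fell in the full lists and for Lgr6 and Dkk1, with all deposited peaks (top) and with lists limited to a common length (bottom). Dkk2 and Fzd6 are lower with GSK-126 in both panels, whereas Lgr6 and Dkk1 are at 0 with DMSO in the bottom panel only.

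GSK-J4 cultures were compared with their DMSO cultures over the same days. The authors reported no H3K27me3 change with this compound by western blot or CUT&RUN, and judged its usable range too small for neurons. Whether 1 µM inhibited the demethylases in these cultures was not tested here. None of the 18 genes tested with the common length was called, and 0% of 1524 promoters were. At an unadjusted p below 0.05, 0 genes were higher and 1 lower, where 2.17% and 2.62% of all promoters were. That gene was Sfrp2, with 18.4, 13.6 and 14.2% with DMSO and 4.05, 6.03 and 13.2% with GSK-J4, without overlap, and a difference of -7.62 ± 3.02 points (adjusted p = 0.975). In the full lists GSKJ4 replicate 3 had 20.8%, above every DMSO library, and the difference was -5.09 ± 4.45 points. Wnt2 had 9.02 ± 4.44, Wnt16 7.48 ± 4.33 and Dkk3 -5.35 ± 3.06 points, each with an adjusted p of 0.975. In the full lists the mean coverage of the 49 promoters was 4.14% ± 0.857 with DMSO and 4% ± 2.1 with GSK-J4, and GSKJ4 replicate 3, whose list was the longest of the 6, had the highest Wnt16, Wnt2 and Rspo2 values.

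The difference between the compounds was tested over the 12 libraries of the 2 experiments. GSK-126 and GSK-J4 had different targets and doses, so the test sets 2 treatments, not 2 analogues, side by side. The DMSO lists differed too, with 3.29 to 4.23 Mb in the GSK-126 experiment and 1.70 to 2.08 Mb in the GSK-J4 experiment. With all peaks the 2 effects therefore start from unequal controls. With the common length 0 of 18 genes differed, where 1.3% of 1766 promoters did, and at an unadjusted p below 0.05 there were 2 higher and 2 lower, where 5.15% and 6.4% of all promoters were. With all peaks 2 of 24 genes had a lower GSK-126 effect, where 3.57% of 3026 promoters did. The difference of effects was -26.6 ± 3.95 points for Ror2 (adjusted p = 0.0151) and -23.7 ± 5.60 points for Wnt16 (adjusted p = 0.0484). With the common length the Ror2 difference of effects had the opposite sign, 6.96 ± 8.14 points (adjusted p = 0.821). Ror2 had a GSK-J4 difference in the full lists of 3.97 ± 2.89 points and Wnt16 one of 7.48 ± 4.45 points, neither of them called. For Dkk2 the difference of effects was -16.1 ± 4.61 points (adjusted p = 0.0771), with a 95% interval of -26.3 to -5.84.

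**Figure D5:**
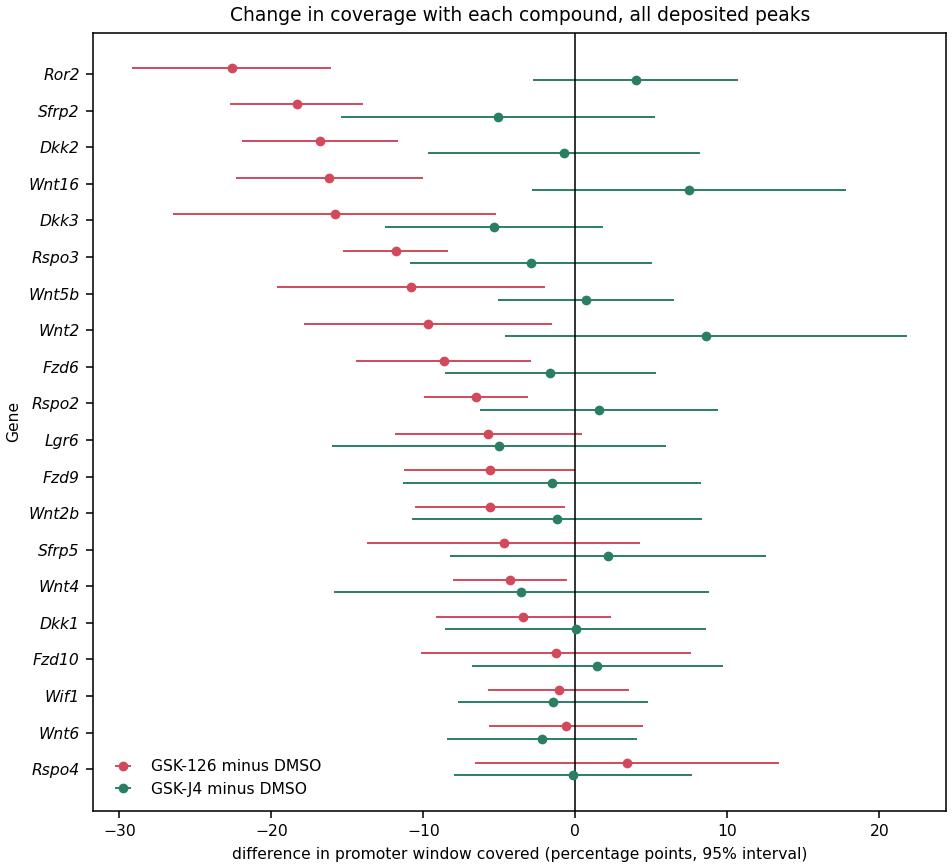
Difference in coverage from DMSO, in percentage points with 95% limma intervals, for the 20 genes tested in both experiments with all deposited peaks, GSK-126 in red and GSK-J4 in green. Intervals of GSK-126 lie below 0 for the 10 uppermost genes and for Wnt2b and Wnt4, and every GSK-J4 interval includes 0.

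Of the other listed genes of the pathway, intracellular ones and further secreted and membrane proteins, 10 of 53 (18.9%) had a peak in at least 12 libraries. Of all promoters 9.45% did. By role these were 3 of 9 nuclear effectors, 3 of 19 cytoplasmic transducers, 2 of 9 planar cell polarity genes, 2 of 8 other secreted modulators and 0 of 8 secretion and membrane proteins. Tcf7l1, a mostly repressive Tcf factor, had a peak in 23 libraries, Tcf7 in 21, the polarity receptor Celsr1 in 20, and Nkd2 and Dkkl1 in 19. The β-catenin gene Ctnnb1 had a peak in 3.

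In the full lists 5 of the 10 of these genes that were tested fell with GSK-126 and 0 rose, where 26.7% and 0.21% of all promoters did, namely Celsr1 (-17.1 ± 3.33 points, adjusted p = 0.0122), Tcf7l1 (-12.7 ± 2.76), Tcf7 (-9.04 ± 2.44), Nkd2 (-8.59 ± 2.12) and Tcf7l2 (-7.33 ± 1.76). Celsr1 and Tcf7l2 had peaks in all 3 DMSO and no GSK-126 library, as did Wls and Vangl1, which were not called. This pattern was shown by 1.78% of all promoters. Since these genes had no coverage with GSK-126, they entered the test only through their DMSO libraries. With the common length only Tcf7l1 could be tested, and it was not called (-11.9 ± 3.40 points, adjusted p = 0.112). With all peaks Foxp2 and Pvalb, 2 of 3 Purkinje cell markers tested, fell, as did both vascular markers tested, Cldn5 and Kdr. Of all promoters 26.7% were called lower. Foxp2 and Kdr had no coverage with GSK-126 and entered the test only through their DMSO libraries. Of the other lists, 0 of 3 oligodendrocyte markers, 0 of 1 microglia marker and 0 of 6 ribosomal protein genes were called.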

How the data were processed

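H3K27me3 CUT&RUN was measured in 24 CGN libraries. The authors trimmed reads with Trimmomatic 0.38, aligned them to mm10 with STAR 2.7.2b and called broad peaks in each library with MACS2 2.1, and their processing notes also name FastQC, bedtools 2.25.0 and DESeq2 1.36.0. The control used for calling is not given in the sources used here. The deposited peak lists hold positions, a display score, a fold enrichment over the caller's background, and −log10 p and −log10 q values. The lowest deposited −log10 q was 1. No read counts were analysed here, so depth is unknown, no interval for counting error could be given, and a promoter without a peak is below the caller's threshold rather than shown to lack the mark. Replicates were CGNs of pooled litters.

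Groups came from the labels. Windows were 3 kb on either side of the 5′ end of 21938 protein-coding genes (GENCODE vM21, mitochondrial genes left out), and coverage was the percentage of the window under peaks. Within an experiment lists were limited, by −log10 p, to a common length of 1.11 Mb (time course), 1.07 Mb (GSK-126) or 1.40 Mb (GSK-J4). Promoters covered in at least 3 libraries were tested with limma 3.58.1 (lmFit, robust eBayes), with Benjamini-Hochberg adjustment over all promoters tested and a threshold of 0.05. Python 3.11.15, numpy 2.4.6, pandas 2.3.3, scipy 1.17.1, pysam 0.24.0, matplotlib 3.10.9 and R 4.3.3 were used, and the fits were checked on simulated data. Alternatives were all deposited peaks, a stricter −log10 q limit (2), lists ordered by fold enrichment, a 1 kb window, coverage in at least 1 library, a replicate block and leaving out libraries.

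Genes named were Wnt7a, members called in any comparison, the 20 members with a peak in most libraries, the smallest p in each direction of the main comparisons, and from the other lists up to 4 called genes and the 2 with most libraries; others are named to complete a count of peaks. The members, the other pathway lists and the marker lists were chosen with earlier results of these data known.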

Additional observations from a re-analysis of the deposited data

Results flagged for a closer look

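The effects of GSK-126 and GSK-J4 differed at 2 genes when all deposited peaks were used, by a limma test of the difference itself. For Ror2 the GSK-126 effect minus the GSK-J4 effect was -26.6 ± 3.95 percentage points of the window (SE, adjusted p = 0.0151). Ror2 coverage was lower in all 3 GSK-126 libraries than in any of their DMSO libraries. The controls were unequal, with Ror2 at 31.9, 28.1 and 22.3% in the DMSO libraries of the GSK-126 experiment. In the shorter DMSO lists of the GSK-J4 experiment it was at 15.4, 15.5 and 18.6%. For Wnt16 the difference of effects was -23.7 ± 5.60 points (adjusted p = 0.0484), with coverage again lower in 3 of 3 GSK-126 libraries. With the common list length neither was called. The Ror2 difference turned to 6.96 ± 8.14 points (adjusted p = 0.821), and that of Wnt16 was -22.1 ± 8.21 points (adjusted p = 0.315).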

How the results depend on the processing

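Call counts depended most on how much of each list was used. Between GSK-126 and DMSO the common length gave 2 called members, all deposited peaks 8, coverage in at least 1 library 1 (Lgr6), and −log10 q of at least 2 and ranking by fold enrichment 0 each. Leaving out 1 library gave 0 at common length and 5 to 8 with all peaks. Over all promoters the calls were 23 higher and 41 lower at common length, 5 and 636 with all peaks, 27 and 64 with fold ranking, and 0 and 0 without DMSO replicate 2, GSK126 replicate 1 or GSK126 replicate 3. Between DIV7 and DIV1 they were 8 and 10, against 1 and 39 with all peaks and 0 and 0 without DIV7 replicate 1. The 1 kb window gave 1 called member (Wnt16) between DIV7 and DIV1 and 1 for the trend. The difference between compounds gave 2 with all peaks. With −log10 q of at least 2, 1 member (Fzd6) had a peak in at least 12 libraries and 0 had DMSO peaks lost with GSK-126, also 0 at common length.

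Directions turned for Rspo3 (-9.24 points, DIV7 against DIV1, all peaks), Fzd6 (5.91, the same comparison, and 0.711, GSK-126, both by fold ranking), Rspo2 (0.0583 without DIV1 replicate 2, with -4.64 the lowest when a library was left out), Lgr6 and Dkk1 (-5.72 and -3.41, GSK-126, all peaks) and Dkk3 (3.97, GSK-J4, fold ranking). Between all peaks and the common length, the Ror2 difference between compounds turned from -26.6 to 6.96 points and the Sfrp5 difference with GSK-126 from -4.70 to 8.79. The cause was not tested. Of the results on counts of members, 133 values kept within 1.5 times or stayed at 0, and 19 did not. The 133 include the time-course fits that left out libraries, all at 0 called members, so the tally is no measure of robustness.

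Replicate numbers are shared only as numbers: deviations of same-numbered libraries correlated at -0.069 to 0.157 over 18 time-course pairs (1 above 0.1), -0.059 to 0.093 in the GSK-126 and 0.027 to 0.034 in the GSK-J4 experiment. The replicate block gave 0 called members for GSK-126 at common length and 6 with all peaks. Leaving out replicate 1 of every day or GSK126 replicate 3, and the all-peaks fits without a library, were chosen after seeing the data.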
